A study of Mus musculus with 6 samples.

Results

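The genes described here handle iron or set how readily a cell dies by ferroptosis, and they were read from bulk RNA sequencing of OT-I CD8+ T cells taken out of pancreatic tumours. They are a list of 10 genes named in advance of this description (Tfrc, Fth1, Ftl1, Ireb2, Aco1, Slc11a2, Ncoa4, Gpx4, Acsl4 and Aifm2), out of 55471 genes in the deposited tables. All 10 matched 1 gene each by symbol and all 10 passed the filter on low counts. The cells came from OT-I mice with a Cas9 knock-in, a C57BL/6J cross of Rag2/OT-I with Rosa26-Cas9 in which every T cell carries one receptor for an ovalbumin peptide and every cell makes the nuclease. They were transduced with a lentiviral vector that carried a guide RNA and the surface reporter CD90.1, and were given by adoptive cell transfer (ACT) to mice with orthotopic KPC_OVA tumours, an ovalbumin-expressing pancreatic cancer line. All recipients received aPD-1 from the day after ACT, and the transferred cells were recovered from the primary tumour by sorting on CD90.1, 7 days after ACT. The labels give no age or strain for the recipients, which the study's methods describe as C57BL/6J or Rosa26-Cas9 mice. The 3 sgElovl1 libraries held cells with a guide against Elovl1, and the 3 sgNT libraries held cells with a non-targeting guide. Each library was of a different mouse, except that sgElovl1 replicates 1 and 2 were each a pool of RNA from 2 tumours and counted as 1 sample. The guide edits cells independently, so the targeted cells are a mixture and not a clone.

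Iron enters a T cell bound to transferrin through the transferrin receptor, encoded by Tfrc and known as CD71, which activated T cells raise as they begin to divide. Iron that is not used is kept inside ferritin, a shell of heavy (Fth1) and light (Ftl1) chains, and is freed again when NCOA4 carries ferritin to the lysosome. Iron regulatory proteins 1 and 2, encoded by Aco1 and Ireb2, bind a hairpin called the iron responsive element (IRE) when iron is scarce. A hairpin in the 5′ untranslated region (UTR) then blocks translation of ferritin, and hairpins in the 3′ UTR protect the Tfrc transcript from decay, so that a transcript count can follow the second arm of this control but not the first. Ferroptosis is a death by iron-driven peroxidation of membrane phospholipids. GPX4 reduces the lipid peroxides with glutathione, AIFM2 (also called FSP1) regenerates ubiquinol as a separate radical trap, and ACSL4 loads membranes with the polyunsaturated fatty acids that peroxidise.

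The hairpins found are shown because iron can control stability through those in a 3′ UTR and translation through those in a 5′ UTR. They do not sort all members, since the search used a strict pattern. The GENCODE M21 transcripts of GRCm38 were searched on the sense strand of the UTRs for the loop CAGTGN, with a bulged C 5 bases before it and 5 pairing bases on either side. Capitals mark the loop in each 23-base stretch, written 5′ to 3′.
Fth1 5′ UTR, chr19:9982735-9982757, plus strand: ctgcttcaaCAGTGCttgaacgg
Ftl1 5′ UTR, chr7:45459782-45459804, minus strand: ttgcttcaaCAGTGTttgaacgg
Tfrc 3′ UTR, chr16:32631222-32631244, plus strand: tatcggaagCAGTGCcttccata
Tfrc 3′ UTR, chr16:32631601-32631623, plus strand: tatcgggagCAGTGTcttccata
Tfrc 3′ UTR, chr16:32631666-32631688, plus strand: tatcggagaCAGTGAtctccata
Tfrc 3′ UTR, chr16:32631713-32631735, plus strand: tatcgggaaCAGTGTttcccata
The ferritin hairpins lay in 4 of 5 coding transcripts of Fth1 and 1 of 2 of Ftl1, and those of Tfrc all lay in Tfrc-201, 1 of its 3 coding transcripts. Of 21901 protein-coding genes, 31 (0.142%) held this pattern in a 5′ UTR and 129 (0.589%) in a 3′ UTR. The other members had no match, which says only that these letters are not in the UTRs searched, and a match is not by itself a working element. Slc11a2 was among those without a match, although it was counted here in the list of transcripts with an IRE.

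The targeted gene was examined first. In sgElovl1 replicates 1 to 3, Elovl1 was at 81.5, 76.6 and 95.4 CPM (counts scaled to a library of 1000000, TMM-normalised), and in the sgNT libraries it was at 283, 279.6 and 255 CPM, so every library matched its label. Libraries held between 21980273 and 26165380 expected counts. The first principal component parted the groups (44.7% of the variance), and the second (29.1%) separated the third library of each group from the other 2. In those 2 libraries the summed CPM of 5 tumour epithelium markers was 303 in sgElovl1 and 931 in sgNT, against 32.2 to 50.3 in the other 4. T cell markers were plentiful throughout, with a summed level of 9116 to 10407 CPM in sgElovl1 and 11904 to 12706 in sgNT. Among them Cd8a (log2 fold change -0.45, edgeR adjusted p = 0.0346), Cd8b1 (-0.49, adjusted p = 0.0211, or 0.066 with an offset for gene length) and Trac (-0.55, adjusted p = 0.0218) fell. Cd3e was at 0.40 (adjusted p = 0.0493, or 0.0614 and not called with the replicate number as a block). In such bulk libraries, fewer cells of a type and less RNA per cell cannot be told apart.

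On the length-scaled TPM scale, the 2 ferritin chains were by far the most abundant members, and Gpx4 came next. Ftl1 had a mean level of 2279 TPM over the 6 libraries (rank 47 of all genes) and Fth1 had 2155 (rank 53), with overlapping ranges of 2028 to 2352 and 1909 to 2487. Gpx4 stood at 452 TPM (rank 397), and Ncoa4 at 41.0. The mean level was 19.6 TPM for Slc11a2, 13.5 for Tfrc, 10.6 for Acsl4 and 9.92 for Aco1, and each neighbouring pair in this run overlapped in range. Aifm2 (5.06 TPM) and Ireb2 (2.28 TPM) closed the order, each with a range apart from its neighbours.

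**Figure D1:**
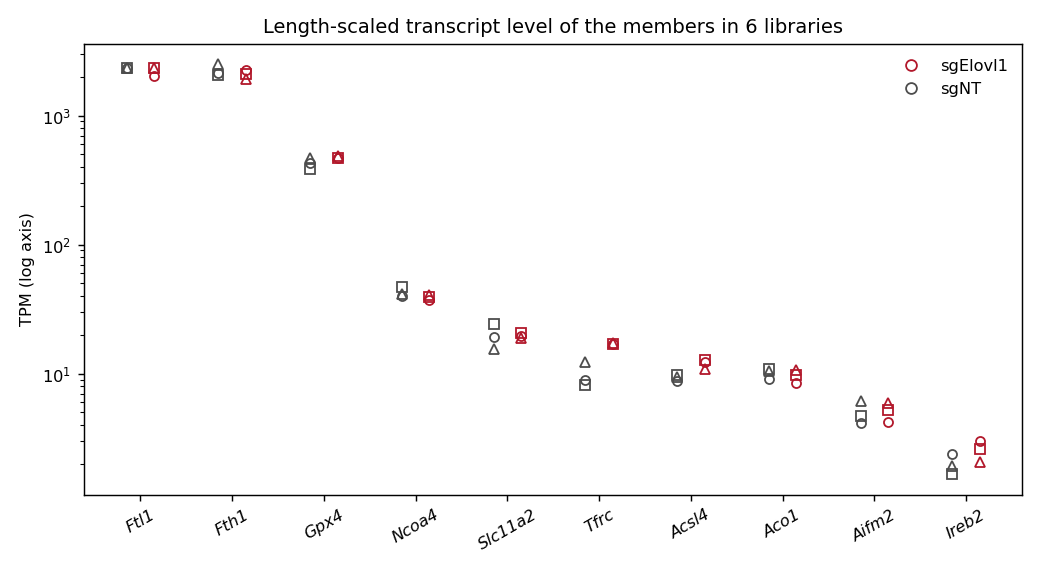
Level of each member in TPM on a log axis, in order of the mean over 6 libraries, with sgNT in grey and sgElovl1 in red. Circles, squares and triangles are replicates 1, 2 and 3. The ferritin chains lie near 2000 TPM in all libraries, and Ireb2 lies lowest, between 1.66 and 3.01.

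Comparing sgElovl1 with sgNT cells asked whether targeting Elovl1 in tumour-infiltrating T cells went with other levels of these transcripts. Of the 10 members, 1 (10%) passed the test, Tfrc, which was higher in sgElovl1 cells. Over all 12546 genes tested, 13.8% passed, 8.64% higher and 5.13% lower (edgeR's quasi-likelihood test with adjusted p below 0.05), and the share among the members was near that of genes in general. No member was lower by edgeR, DESeq2 or limma-voom. At an unadjusted p under 0.05, as for 4034 of all 12546 tested genes, edgeR named 2 members, Tfrc and Acsl4, both higher. These 2 were also the members whose groups did not overlap, both higher in sgElovl1, where 19.4% of all tested genes lay wholly higher and 17.7% wholly lower. The log2 fold change was positive for 5 members and negative for 5, with a median of -0.02 beside 0.00 over all tested genes.

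**Figure D2:**
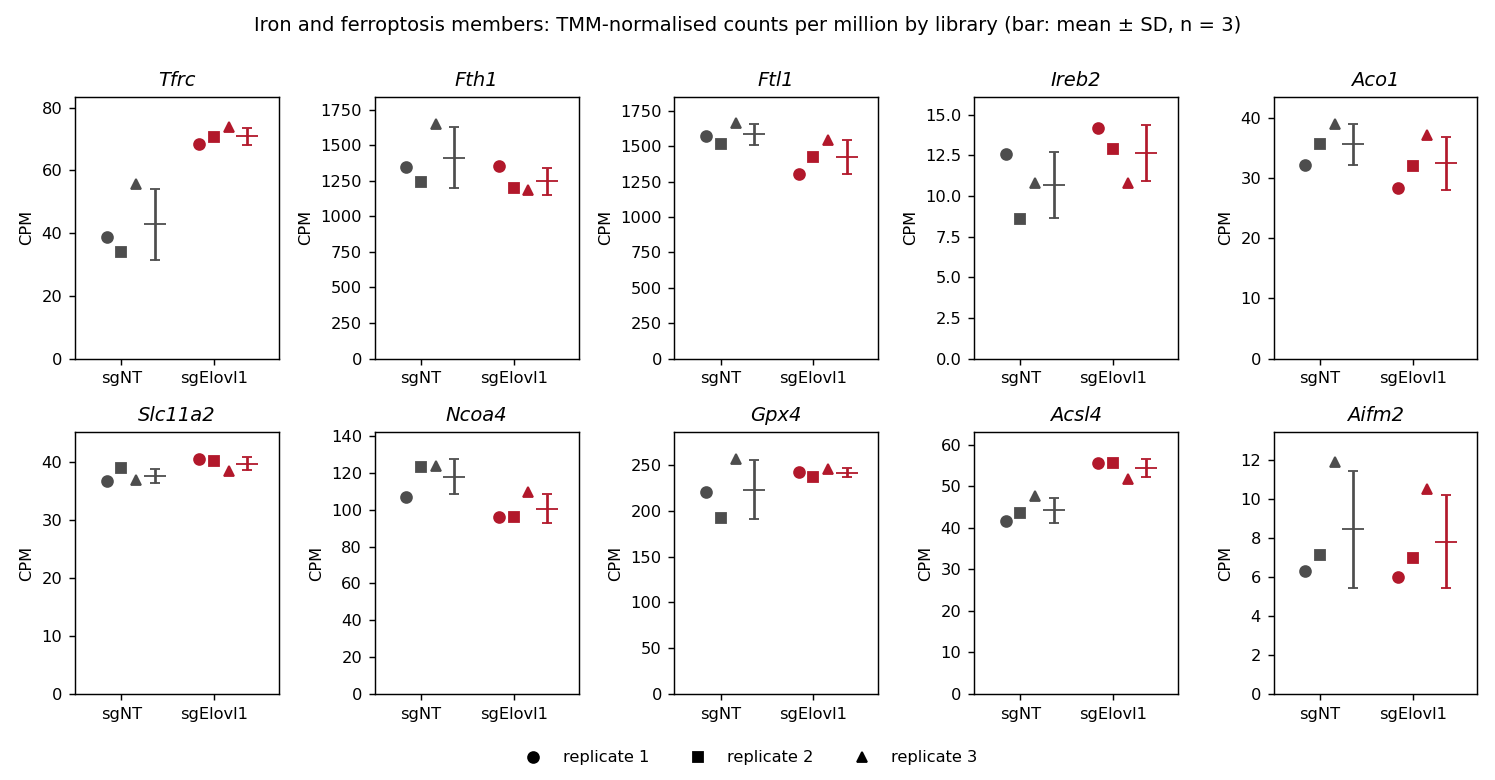
Each panel shows 1 member in TMM-normalised CPM, from 0, with sgNT in grey and sgElovl1 in red. Circles, squares and triangles are replicates 1, 2 and 3, and the bar beside them is the mean ± SD (n = 3). The groups are apart for Tfrc and Acsl4 and overlap for the other 8 members.

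Among the importers, Tfrc (ENSMUSG00000022797, chromosome 16, 32608920 to 32632794, plus strand) was at 68.3, 70.5 and 73.8 CPM in sgElovl1 replicates 1 to 3. In sgNT replicates 1 to 3 it was at 38.8, 34.1 and 55.5 CPM. Every sgElovl1 library lay above every sgNT library, and sgNT replicate 3 was the nearest to them. Mean levels were 70.9 ± 2.77 CPM in sgElovl1 and 42.8 ± 11.2 CPM in sgNT (SD, n = 3 each), a 1.66-fold difference. Tfrc thus rose by 0.73 on the log2 scale (SE 0.16, 95% interval 0.36 to 1.09, edgeR adjusted p = 0.0184). The fitted difference lost its call when any of 4 libraries was left out: sgElovl1 replicate 1 (adjusted p = 0.0652), sgElovl1 replicate 2 (0.088), sgNT replicate 1 (0.0739) or sgNT replicate 2 (0.0791), with log2 fold changes of 0.60 to 0.75. Without the third library of both groups it was 0.93 (adjusted p = 0.000278), in a fit where 3986 of 12656 tested genes passed.

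Gene length moved with this result. The mean transcript of Tfrc in the deposited tables was 4615 bases long, and the 822 tested genes of 4000 to 5000 bases had a median log2 fold change of 0.37, with 20.3% of them called higher. Genes of 1000 to 2000 bases had a median of -0.17 (4111 genes). With an offset that removes the trend on gene length in each library, the log2 fold change of Tfrc was 0.41 and did not pass the test (adjusted p = 0.164). With the replicate number as a block as well, it was 0.43 (adjusted p = 0.0655). The direction was higher in each of these fits.

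Markers of other cells and of division were read beside Tfrc. Of 8 proliferation markers, Top2a (log2 fold change 0.75, adjusted p = 0.0025), Ccnb1 (0.55, adjusted p = 0.0111) and Mki67 (0.52, adjusted p = 0.0164) rose. Over all tested genes, 8.64% were called higher. The rest of the markers were not called: Cdk1 at 0.22, Aurkb at 0.16, Mcm2 and Pcna at -0.02 each, and Mcm5 at -0.19. The summed level of the 8 was 1448, 1497 and 1500.3 CPM in sgElovl1 against 1293, 1475 and 1327 in sgNT. Macrophage and monocyte markers without Ly6c2, which T cells also express, summed to 88.5, 128 and 259.7 CPM in sgElovl1 and 41.1, 56.0 and 58.2 CPM in sgNT. Cd68 made up most of the sgNT sum, at 38.3, 46.1 and 36.7 CPM. Its log2 fold change went the other way (-0.34, edgeR adjusted p = 0.159) and was not called. Lyz2 made up most of the sgElovl1 sum, at 53.7, 77.3 and 159 CPM, and its mean in sgNT was 7.9 CPM. In the list without Ly6c2, 3 of 8 tested genes rose, and the defining marker Adgre1 had no count in sgNT and 0.692 to 3.11 CPM in sgElovl1. Erythroid cells, which hold abundant Tfrc as precursors, left little trace: their markers summed to 1.78 CPM or less in every library and 3 of the 8 matched were at 0 throughout. With the length offset, Mki67 (9979 bases long) was at 0.13 and not called (adjusted p = 0.445), while Top2a (0.47) and Ccnb1 (0.64) were called. The part of division or of other cells in the Tfrc difference was not tested.

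Slc11a2 (chromosome 15, 100387898 to 100425072, minus strand), which encodes the divalent metal transporter that moves iron out of the endosome, was at 40.5, 40.2 and 38.4 CPM in sgElovl1 and 36.8, 38.9 and 36.9 CPM in sgNT. The groups overlapped, and the log2 fold change of 0.08 (95% interval -0.15 to 0.31) did not pass the test (adjusted p = 0.632). The gene has transcripts with different 3′ ends, and the deposited mean transcript length, which follows the mix of transcripts, was 2462, 2409 and 2346 bases in sgElovl1 and 2203, 1991 and 2537 bases in sgNT. These lengths overlapped as well. Mean lengths of Tfrc were 4612 ± 127 bases in sgElovl1 and 4618 ± 126 in sgNT. Ftl1 was the member whose mean lengths did not overlap, by 1 base in 967.

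The ferritin chains did not pass the test. Fth1 (chromosome 19, 9980598 to 9985098, plus strand) was at 1357, 1199 and 1187 CPM in sgElovl1 and 1349, 1239 and 1649 CPM in sgNT. Its log2 fold change was -0.18 (95% interval -0.49 to 0.13, adjusted p = 0.408), and sgNT replicate 3 was the highest library. Ftl1 (chromosome 7, 45457944 to 45459884, minus strand) was at 1307, 1426 and 1546 CPM in sgElovl1 and 1573, 1515 and 1664 CPM in sgNT (log2 fold change -0.15, 95% interval -0.43 to 0.13, adjusted p = 0.434). The groups overlapped for both chains. Reads of Ftl1 can be split with a near-identical copy, and Ftl1-ps1 held 575 to 852 counts a library, beside 33811 to 40202 for Ftl1. The expected counts of Gpx4 and Ncoa4 were likewise not whole, a sign of reads split between transcripts of several genes, and Gpx4-ps2 held 207 to 278 counts.

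Storage can also be set against uptake within each library, which takes out the scale of that library. The summed TPM of Fth1 and Ftl1 was 252, 257 and 246 times that of Tfrc in the sgElovl1 libraries and 502, 545 and 387 times in the sgNT libraries. All sgElovl1 libraries were below all sgNT libraries, a log2 difference of -0.91 (exact two-sided permutation test, p = 0.1, the smallest that 3 against 3 libraries can give). This ratio holds Tfrc itself, so it mostly restates the Tfrc difference and is not a separate result. Mean TPM in sgElovl1 and sgNT was 17.1 and 9.81 for Tfrc, 2080.3 and 2230.2 for Fth1, and 2223 and 2334 for Ftl1. The ratio sets genes of under 1000 bases against one of 4615, so the length trend given for Tfrc touches it too. The ratio of Fth1 to Ftl1 was 1.11, 0.902 and 0.821 in sgElovl1 and 0.919, 0.88 and 1.07 in sgNT. These overlapped (log2 difference -0.03, exact two-sided permutation test, p = 0.9). With the TPM of annotated ferritin copies added, the log2 differences were -0.91 for ferritin over Tfrc and -0.02 for Fth1 over Ftl1.

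**Figure D3:**
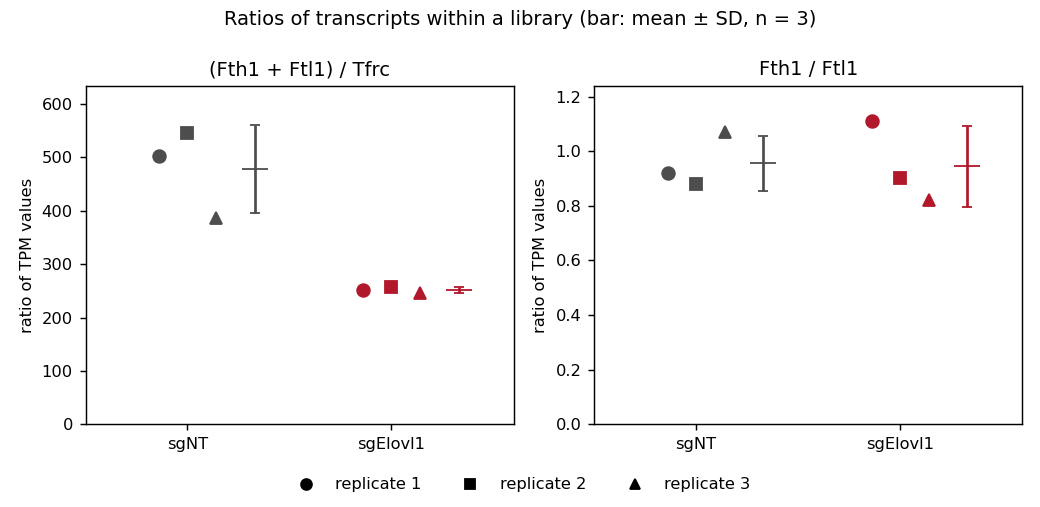
Ratios of TPM values within each library, from 0, with the summed ferritin chains over Tfrc on the left and Fth1 over Ftl1 on the right. Symbols are replicates and bars are the mean ± SD (n = 3). The left ratio averages 252 in sgElovl1 and 478 in sgNT without overlap, and the right one averages 0.943 and 0.956 with overlap.

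Ncoa4 (chromosome 14, 32159865 to 32179855, plus strand), the receptor that takes ferritin to the lysosome, was at 96.3, 95.8 and 109.8 CPM in sgElovl1 and 107, 123 and 124 CPM in sgNT. The groups overlapped through sgElovl1 replicate 3 and sgNT replicate 1. The log2 fold change was -0.23 (95% interval -0.48 to 0.02, adjusted p = 0.19), and it was -0.35 with the length offset (adjusted p = 0.0773). Neither value passed the test.

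The iron sensors gave no call. Ireb2 (chromosome 9, 54863789 to 54912530, plus strand), which encodes iron regulatory protein 2, was at 14.2, 12.9 and 10.8 CPM in sgElovl1 and 12.6, 8.58 and 10.8 CPM in sgNT. Its log2 fold change was 0.25 (95% interval -0.17 to 0.66, adjusted p = 0.391) and turned to -0.10 with the length offset. Aco1 (chromosome 4, 40143081 to 40198338, plus strand), which is a cytosolic aconitase when it holds an iron-sulphur cluster and iron regulatory protein 1 when it does not, was at 28.4, 32.1 and 37.2 CPM in sgElovl1 and 32.2, 35.7 and 39.1 CPM in sgNT. Its log2 fold change was -0.13 (95% interval -0.43 to 0.16, adjusted p = 0.525). The transcript levels do not show how much of either protein is bound to RNA.

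Acsl4 (chromosome X, 142317993 to 142390535, minus strand) had the largest log2 fold change of the 3 ferroptosis members. It was at 55.6, 55.7 and 51.8 CPM in sgElovl1 and 41.7, 43.6 and 47.6 CPM in sgNT, so the groups did not overlap. The log2 fold change of 0.30 (SE 0.11, 95% interval 0.06 to 0.53) did not pass the test over all genes (unadjusted p = 0.0191, edgeR adjusted p = 0.0877). It passed when the third library of both groups was left out (0.38, adjusted p = 0.0162), as did 3986 of the 12656 genes tested in that fit. Acsl4 is long as well, at a mean of 5037 bases, and the 633 tested genes of 5000 bases or more had a median log2 fold change of 0.35. With the length offset the value for Acsl4 was -0.04 (adjusted p = 0.852).

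The genes of both defences against lipid peroxides overlapped between the groups. Gpx4 (chromosome 10, 80047166 to 80056439, plus strand) was at 243, 237 and 246 CPM in sgElovl1 and 221, 192 and 257 CPM in sgNT, with a log2 fold change of 0.12 (95% interval -0.15 to 0.39, adjusted p = 0.546). Aifm2 (chromosome 10, 61715263 to 61739260, plus strand) was at 6.01, 6.96 and 10.5 CPM in sgElovl1 and 6.30, 7.13 and 11.9 CPM in sgNT. Here the spread followed the replicate number and not the guide, with the third library highest in both groups, and the log2 fold change was -0.11 (95% interval -0.74 to 0.51, adjusted p = 0.816). The third libraries are those with the high tumour epithelium markers, whose part in the Aifm2 level was not tested. At 148 to 288 counts a library, Aifm2 had the widest interval of all members.

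**Figure D4:**
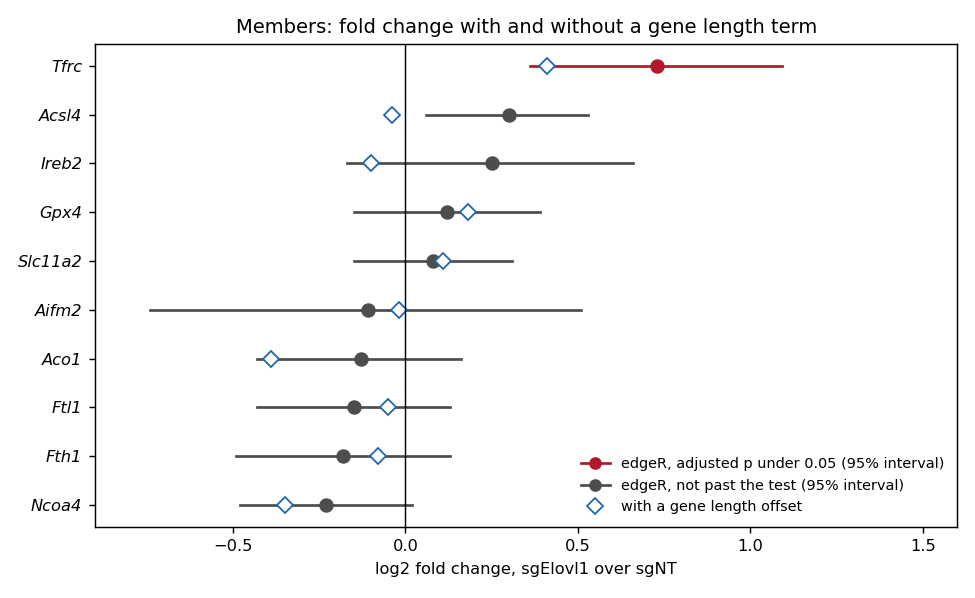
Log2 fold change of each member, sgElovl1 over sgNT, with the 95% interval from edgeR. Red marks the member past the test (Tfrc, 0.73) and grey the others, and open blue diamonds show the same gene with the gene length offset, which takes Tfrc to 0.41 and Acsl4 to -0.04.

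Around the members, 104 further genes of iron handling and ferroptosis were taken from 7 lists, and 92 of them passed the filter. Of these 92, 1 rose and 6 fell, 7.61% in all, below the 13.8% of all tested genes. The median log2 fold change was -0.06, with 41 genes positive and 51 negative. Calls depended on which libraries were in the fit: none of the 7 held without sgElovl1 replicate 2 or without sgNT replicate 2, 1 held without sgNT replicate 1, and 2 held without sgElovl1 replicate 1 or without sgNT replicate 3. All 7 held without sgElovl1 replicate 3. The calls over all genes also dropped, from 1727 to 321 without sgElovl1 replicate 2 and to 398 without sgNT replicate 2. The log2 fold changes moved less: without sgElovl1 replicate 2, Gsr was at -0.35, Ciao1 at -0.35, Nfe2l2 at -0.47, Pcbp2 at -0.48, Iscu at -0.42 and Agps at 0.49.

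In the list of iron uptake, reduction and export, no further gene passed the test by edgeR (0 of 11) or by limma-voom, and 1, Slc48a1, was lower by DESeq2. By edgeR 2 of the 11 were at an unadjusted p under 0.05, beside 4034 of all 12546 tested genes. Of the 11, 10 had a positive log2 fold change, with a median of 0.43. Over all 12546 tested genes, 6228 were positive and the median was 0.00. Slc48a1, which moves haem out of the lysosome, was the exception at 70.2, 77.6 and 87.6 CPM in sgElovl1 and 103, 95.5 and 114 CPM in sgNT (-0.41, adjusted p = 0.0502, or 0.0455 with the replicate block). Flvcr1, a haem and choline transporter, was at 15.8 ± 1.84 CPM in sgElovl1 and 11.6 ± 2.13 in sgNT (0.45, adjusted p = 0.104). With the length offset it was at 0.31. Slc25a37 then went from 0.50 to 0.28, Slc39a14 from 0.29 to 0.04, Slc39a8 from 0.43 to 0.32 and Steap3 from 0.03 to -0.01. Trf, Slc11a1, Mcoln1, Slc25a28, Hfe and Slc48a1 moved up. Genes of 3000 to 4000 bases, as Flvcr1, Slc25a37 and Slc39a14 are, had a median of 0.21. Steap3 (0.46 and 0.457 CPM) and Hfe (0.814 and 0.424) were low. These genes other than Flvcr1 and Slc48a1 were named after their values were seen. Trf and Slc11a1, named after their values were seen, were highest of all 6 libraries in sgElovl1 replicate 3 (19.6 and 6.08 CPM), which also had the most macrophage markers other than Ly6c2. The part of those cells was not tested.

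The iron exporter gene Slc40a1 was too low to be tested, and it and the other untested genes named here were chosen after their values were seen. It had 9, 1 and 81 counts in the sgElovl1 libraries and 4, 0 and 91 in the sgNT libraries, so nearly all of its counts were in the third library of either group. The ferroxidase gene Cp had 135 counts in sgNT replicate 3 and 3 to 14 in the other libraries. The third library of either group is also the one with high tumour epithelium markers, but Cp had only 6 counts in sgElovl1 replicate 3. The part of tumour cells in these counts was not tested. Slc7a11, the cystine transporter gene, had 1 to 11 counts a library, 0.503 CPM at most, while its partner Slc3a2, which also pairs with other amino acid transporters, was at 419.8 ± 26.7 CPM in sgElovl1 and 539.7 ± 39.3 in sgNT (-0.36, edgeR adjusted p = 0.0587, DESeq2 adjusted p = 0.0109). The 3 lipoxygenase genes Alox5, Alox12 and Alox15 were also too low, with 49 counts or fewer in any library.

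Of the storage, chaperone and sensing genes, 1 of 10 fell (10%), beside 5.13% of all tested genes. Pcbp2, whose protein delivers iron to ferritin and other targets, was at 65.1, 55.8 and 51.5 CPM in sgElovl1 and 79.2, 81.2 and 84.1 CPM in sgNT. The groups lay apart (log2 fold change -0.50, SE 0.12, edgeR adjusted p = 0.0212). With the length offset it was -0.35 (adjusted p = 0.0938). The haem oxygenase gene Hmox2 (-0.32, adjusted p = 0.0808) and Blvra (-0.29, adjusted p = 0.179), for the biliverdin reductase of the next step, did not pass edgeR's test, although DESeq2 called Hmox2 lower (adjusted p = 0.043), and the monothiol glutaredoxin gene Glrx3 was at -0.15 (adjusted p = 0.426). Epas1, a hypoxia-inducible factor gene beyond the members that is known for an IRE, was at 0.44 (adjusted p = 0.357).

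Haem and iron-sulphur cluster synthesis was the longest list, and 3 of its 24 genes fell and none rose by edgeR (0 higher by DESeq2 and limma-voom too). These are 12.5% of the list, beside 13.8% of all tested genes called in either direction and 5.13% called lower. Of the 24, 19 had a negative log2 fold change, with a median of -0.10, where 6318 of all 12546 tested genes were negative. Many of the 24 are 1000 to 2000 bases long, and tested genes of that length had a median of -0.17. Iscu, the scaffold on which iron-sulphur clusters are built, was at 74.0, 79.8 and 105 CPM in sgElovl1 and 117, 127 and 115 CPM in sgNT (-0.48, SE 0.14, edgeR adjusted p = 0.0441). Ciao1, which helps to place clusters on cytosolic proteins, was at 59.4, 58.1 and 56.7 CPM against 76.7, 71.7 and 74.0 CPM (-0.35, SE 0.10, adjusted p = 0.0459). The groups did not overlap for either of them. Urod (-0.36, adjusted p = 0.0509) and Nubp2 (-0.34, adjusted p = 0.062) were not called by edgeR but were lower by DESeq2 (adjusted p = 0.0171 and 0.0225), and Urod also by limma-voom (0.049). Isca2 was at 0.14 (adjusted p = 0.57). Iscu and Ciao1 are 974 and 1478 bases long, where genes in general had medians of -0.05 and -0.17, and none of the 24 passed with the length offset by edgeR. With the replicate block, 1 of the 24 was called, Iscu (adjusted p = 0.0482), and Ciao1 was not (adjusted p = 0.0599).

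In glutathione and selenoprotein synthesis, 1 of 14 genes fell (7.14%, beside 5.13% of all tested genes), Gsr, the reductase that recycles oxidised glutathione. It was at 93.6, 91.2 and 94.3 CPM in sgElovl1 and 122, 119 and 119 CPM in sgNT, close within each group and apart between them (-0.36, SE 0.10, edgeR adjusted p = 0.0375). Its call held with the length offset (-0.38, adjusted p = 0.0329) and not with the replicate block (adjusted p = 0.0543). Chac1, which breaks down glutathione, was at 0.995 ± 0.465 CPM in sgElovl1 and 2.10 ± 0.764 in sgNT (-1.07, adjusted p = 0.116).

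Among genes that supply or remodel peroxidisable membrane lipid, 1 of 15 rose by edgeR (6.67%), beside 8.64% of all tested genes. Agps, which makes the ether bond of plasmalogens, was at 42.8, 49.2 and 51.8 CPM in sgElovl1 and 36.1, 31.0 and 33.4 CPM in sgNT (0.52, SE 0.12, edgeR adjusted p = 0.0189). The call held with the length offset (0.55, adjusted p = 0.0178). Scd2, a stearoyl-CoA desaturase, was at 48.2, 53.6 and 34.9 CPM against 20.2, 19.9 and 36.9 CPM, and the groups overlapped through replicate 3 of each (0.83, edgeR adjusted p = 0.0933). It was called higher by DESeq2 (0.82, adjusted p = 0.00741) and limma-voom (0.88, adjusted p = 0.0446), and was at 0.48 with the length offset (adjusted p = 0.283). For the acyl-CoA synthetase gene Acsl1 the log2 fold change was 0.77 (adjusted p = 0.131), and the polyamine enzyme gene Sat1 was at 463 ± 81.5 and 458 ± 74.4 CPM.

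In the list of radical trapping and NRF2 targets, 1 of 16 genes fell (6.25%), beside 5.13% of all tested genes. It was Nfe2l2 itself, which encodes NRF2, a transcription factor of the antioxidant response, at 37.2, 38.8 and 40.7 CPM in sgElovl1 and 51.8, 59.8 and 49.5 CPM in sgNT (-0.47, SE 0.11, edgeR adjusted p = 0.0245). The call held with the length offset (-0.46, adjusted p = 0.0262). Spr, for a step of tetrahydrobiopterin synthesis, was at -0.47 (adjusted p = 0.0763), and the peroxiredoxin gene Prdx1 at -0.23 (adjusted p = 0.264) without overlap. Vkorc1l1, a vitamin K reductase gene, was at 11.3 ± 2.36 CPM in sgElovl1 and 7.49 ± 1.11 in sgNT, without overlap (0.59, adjusted p = 0.0735). With the length offset it was called higher (0.73), as was Pts (0.40, adjusted p = 0.0348), which acts in tetrahydrobiopterin synthesis and is named after its values were seen, so that 2 genes of this list were then higher and 1 lower.

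**Figure D5:**
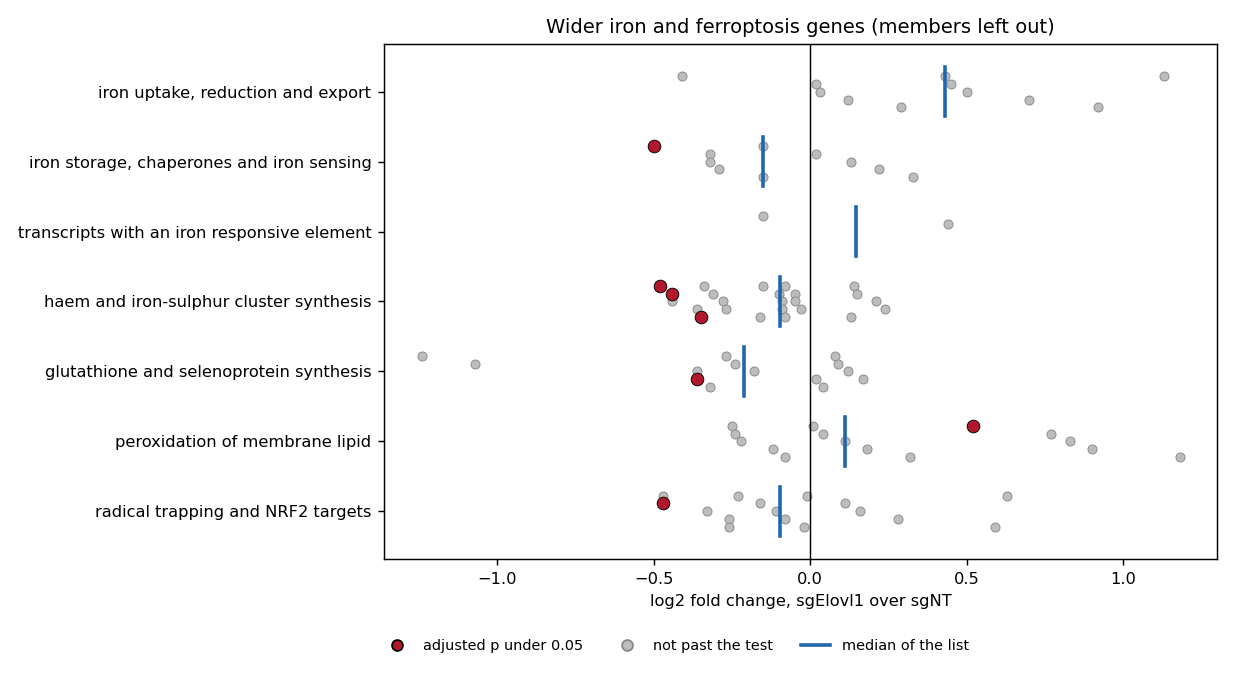
Log2 fold change, sgElovl1 over sgNT, of the 92 tested genes beyond the members, by list. Each point is a gene, red where it passed edgeR's test (1 higher, 6 lower) and grey where it did not, and the blue line is the median of the list, 0.43 for uptake and -0.10 for haem and iron-sulphur synthesis. No length offset was used here.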

How the data were processed

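RNA of sorted cells was pre-amplified (SMARTer) and sequenced paired-end with strand-specific libraries. Per the submitters' processing notes, STAR 2.7.7a, RSEM 1.3.1 and DESeq2 1.36.0 were used with genome build mm10. The annotation release is not given in the sources used here. The deposited expected counts are RSEM's unscaled estimates of read pairs per gene, and were rounded to whole numbers here. The authors also deposited TPM and FPKM, scaled by transcript length and depth by RSEM, of which TPM was used for levels between genes and ratios and FPKM was not used. Symbols came from GENCODE M21 on GRCm38, the assembly of mm10 (55230 of 55471 IDs matched), as did the transcript sequences.

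Tests were run in R 4.3.3 with edgeR 4.0.16 (genes kept by filterByExpr at a minimum count of 10, TMM, robust quasi-likelihood fit on the group, two-sided test, Benjamini-Hochberg over 12546 genes, called at an adjusted p under 0.05). Steps were tested on simulated data with known changes. CPM is counts scaled to a TMM-normalised library of 1000000. Alternatives were DESeq2 1.42.0, limma 3.58.1 (voom, and log2 of TPM + 0.5 or + 1), RLE and upper quartile factors, no filter, an offset for gene length (the deposited mean length in bases), the replicate number as a block, each library left out, and the third library of both groups left out. The members, lists and alternatives were chosen with earlier results of these data known. The genes named were the members, Elovl1, every called gene of the 7 lists, the 2 further genes of each list with the smallest p and up to 3 with the highest mean TPM, except a few that are not reported here and are kept in the counts.

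The labels give same-numbered libraries to different mice. Their deviations from the group means correlated at 0.212, 0.245 and 0.405 for replicates 1, 2 and 3. Replicates 1 and 2 also correlated across numbers, at 0.107 and 0.169. Replicate 3 of either group was at -0.294 to -0.233 with replicates 1 and 2 of the other. Deviations from a group's own mean are also tied together, so these values do not show pairing by number. The block was kept only as an alternative fit. Samples differ by mouse, and p-values rest on the spread between these libraries. As sgElovl1 replicates 1 and 2 each pool RNA of 2 tumours, that spread is not one between single mice. No pair of libraries held identical values (0 pairs).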

Additional observations from a re-analysis of the deposited data

How the results depend on the processing

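The call of Tfrc held with DESeq2, RLE and upper quartile factors, no filter, limma-voom, both TPM fits and the replicate block (0.76, adjusted p = 0.0133). Of the 10 members, 0 were called with the length offset and 0 with the replicate block and length offset, 2 (Tfrc and Acsl4) without the third libraries, and 0 to 1 with 1 library left out. Of the wider genes, 13 of 92 were called with DESeq2, 3 with either TPM fit, 3 with the replicate block and length offset, 23 without the third libraries, and 0 to 17 with 1 library left out. Over all genes, the 1727 calls became 2484 of 12546 with DESeq2 and 960 and 923 with TPM + 0.5 and + 1. They became 1102 with the replicate block and length offset, 3986 without the third libraries and 321 to 2718 with 1 library left out. Log2 fold changes turned sign with the length offset for Ireb2 (-0.10, or -0.08 with the replicate block as well) and Acsl4 (-0.04, or -0.03). Aifm2 turned to 0.04 and 0.03 with TPM + 0.5 and + 1, to 0.01 with the replicate block and length offset, and ranged from -0.38 to 0.23 with 1 library left out. Isca2 ranged from -0.06 to 0.24 and Sat1 from -0.13 to 0.14 with 1 library left out, and both turned without the third libraries (-0.07 and -0.02). The ratio of Fth1 to Ftl1 ranged from -0.15 to 0.07 on the log2 scale with 1 library left out. Apart from the length offset, whose construction removes the shared trend, the cause of these moves was not tested. The 12 genes under the count filter could not be compared at this depth, and counts of transcripts say nothing of protein or iron.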
